A study of Mus musculus with 6 samples.

Results

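A set of 40 genes of antioxidant defence, metallothioneins and ferroptosis was followed in the hippocampus of mice 24 h after traumatic brain injury (TBI). The members were chosen by symbol from the 52550 genes listed for every library. All 40 were found, and 39 of them had enough counts to be tested. Hippocampal RNA was sequenced from 3 sham and 3 TBI mice, with 1 library per mouse (Sham1 to Sham3 and TBI1 to TBI3). All mice were young adult males of the C57BL/6 strain (C57B6/J in the study's methods), and no engineered allele is named for them. TBI mice received a controlled cortical impact of moderate severity over the right parietal cortex after a craniotomy under ketamine and xylazine. Sham mice went through the same anaesthesia and craniotomy without the impact, so opening of the skull was shared by both groups. The study describes the tissue as whole hippocampus, and the hippocampus of the opposite side was also reached at dissection, while no source used here states the sides that entered each library.

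Cells keep reactive oxygen in check with enzymes that remove superoxide and peroxides. Glutathione and thioredoxin return many of the peroxidases among them to their reduced form. The transcription factor Nrf2, held down by Keap1, raises many of these genes under oxidative stress, while metallothioneins are small cysteine-rich proteins that bind zinc and copper and are induced by metals through the factor MTF-1. Ferroptosis is an iron-dependent form of cell death in which lipids are peroxidised. It is restrained by glutathione peroxidase 4, which needs glutathione made from imported cystine, and it is favoured by Acsl4, which puts polyunsaturated fatty acids into membranes.

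The estimated counts per library summed to between 31630936 and 41771872, and levels are given as CPM, the usual depth-scaled unit, with TMM factors for the library sizes. Neuronal markers of the hippocampus were detected in every library, and the sum of all 11 was 4126 to 4669 CPM in sham and 3176 to 3791 CPM in TBI, without overlap. Of the 11, 9 had a log2 fold change below 0, and the median was -0.97. The 2 above 0 were Snap25 and Wfs1, at 0.052 and 0.21. Only Prox1, Fibcd1 and Slc17a7 were lower in TBI without overlap. Without Slc17a7 the sums overlapped, at 2534 to 3007 CPM in sham and 2484 to 2780 CPM in TBI. Most of that sum was Snap25, at 1700 to 2221 CPM. A pair of libraries stood apart in lists of cell type and region markers. Sham2 had the most reactive astrocyte RNA, with 5074 CPM summed over 9 markers against 642 to 1788 CPM in the other libraries. It had the least oligodendrocyte RNA, with 3034 CPM over 9 markers against 9161 to 11174 CPM. It also had the least choroid plexus RNA, with 55.6 CPM over 9 markers. The choroid plexus sum was 243 and 264 CPM in TBI1 and TBI3, against 2051 to 2389 CPM in Sham1, Sham3 and TBI2. TBI1 had 4966 CPM over 9 striatal markers against 162 to 247 CPM elsewhere, and its dentate marker C1ql2 was at 2.45 CPM against 39.6 to 86.0 CPM. It also had the most microglia and macrophage RNA, with 903 CPM over 12 markers against 431 to 640 CPM. No marker of these lists was at 0 in all libraries. In bulk tissue, fewer cells of a type and less RNA per cell cannot be told apart.

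**Figure D1:**
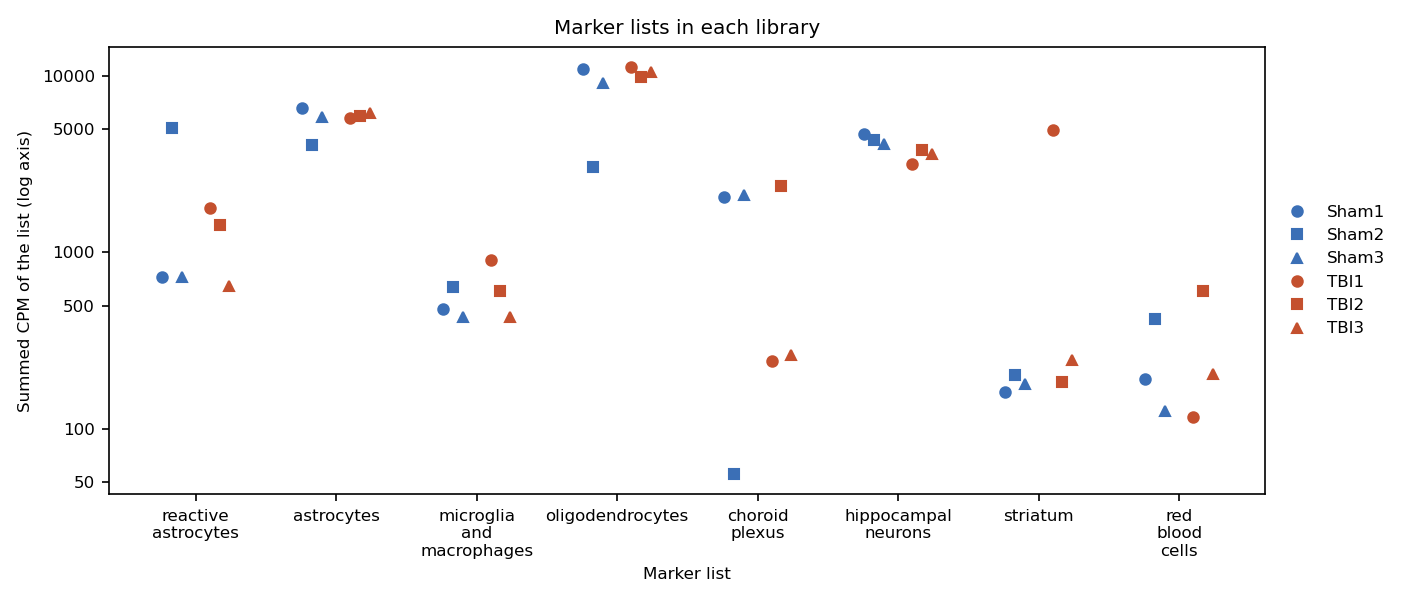
Summed CPM (log axis) of 8 marker lists in each of the 6 libraries, with sham in blue and TBI in red and a symbol for each library. Sham2 lies above the other libraries for reactive astrocytes (5074 CPM) and below them for oligodendrocytes (3034 CPM) and choroid plexus (55.6 CPM), and TBI1 lies above them for striatum (4966 CPM).

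The metallothionein genes lie close together on chromosome 8 (GRCm38, plus strand), Mt3 from 94152607 to 94154146, Mt2 from 94172664 to 94173568 and Mt1 from 94179082 to 94180327. Their promoters are shown because Mt1 and Mt2 shared a library pattern that Mt3 did not, as described below. Printed are the 250 bases before each RefSeq start (GRCm38.p6, plus strand, 5′ to 3′), namely chr8:94178839-94179088 for Mt1, chr8:94172368-94172617 for Mt2 and chr8:94152357-94152606 for Mt3. Capitals mark the core of the metal response element, searched as TGCACNC or TGCGCNC on both strands.
Mt1: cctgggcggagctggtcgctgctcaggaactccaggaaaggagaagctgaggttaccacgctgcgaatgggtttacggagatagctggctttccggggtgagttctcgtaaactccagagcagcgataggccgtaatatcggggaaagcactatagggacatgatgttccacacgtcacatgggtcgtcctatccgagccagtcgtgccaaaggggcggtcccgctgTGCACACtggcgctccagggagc
Mt2: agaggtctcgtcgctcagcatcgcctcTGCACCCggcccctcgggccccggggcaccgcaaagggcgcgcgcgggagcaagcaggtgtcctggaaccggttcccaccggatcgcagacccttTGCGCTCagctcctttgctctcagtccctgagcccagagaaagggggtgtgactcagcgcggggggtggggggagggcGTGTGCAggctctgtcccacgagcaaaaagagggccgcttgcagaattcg
Mt3: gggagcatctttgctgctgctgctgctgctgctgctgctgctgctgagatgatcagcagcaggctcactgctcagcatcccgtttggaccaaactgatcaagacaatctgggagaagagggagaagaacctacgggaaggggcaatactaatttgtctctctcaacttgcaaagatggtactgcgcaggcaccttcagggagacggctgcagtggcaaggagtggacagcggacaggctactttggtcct

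The core had 1 match in the window of Mt1, 3 in that of Mt2 and 0 in that of Mt3. At least 1 match was held by 21.4% of all 32851 promoter windows of this length and by 10 of the 42 windows (23.8%) found for 35 members, while 3 or more matches were held by 1.26% of all windows. GENCODE vM21 also lists Mt1 transcripts that start 122 and 152 bases downstream of the RefSeq start used here, and the 152 bases in between held 4 further matches. Such stretches were not searched for other genes, Mt2 included, so no share over all genes stands beside these 4 matches. A match is a string of letters and not a measured binding site, and no binding was measured.

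The promoter of Txnrd1, the cytosolic thioredoxin reductase, is shown because this gene was high in Sham2 and TBI1 and because one of its windows holds the core of the antioxidant response element, to which Nrf2 binds. RefSeq lists 3 windows for Txnrd1, of which this one was chosen for its match, and the other two hold 0. The window is chr10:82858956-82859205 (GRCm38.p6, plus strand), and capitals mark the match to TGACNNNGC, searched on both strands and found here on the minus strand.
Txnrd1: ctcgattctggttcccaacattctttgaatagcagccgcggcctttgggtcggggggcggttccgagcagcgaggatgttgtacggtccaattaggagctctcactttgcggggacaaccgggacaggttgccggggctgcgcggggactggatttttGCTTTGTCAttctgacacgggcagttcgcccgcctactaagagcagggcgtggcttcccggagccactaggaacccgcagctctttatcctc

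This core was found in 10.2% of all promoter windows and in 7 of the 42 windows of members (16.7%). The window of Srxn1, also high in Sham2, held 0. In the Mt2 window it had 1 match, which did not overlap the metal response element cores.

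In edgeR's quasi-likelihood test, no member tested passed the thresholds for a differentially expressed gene (DEG), which ask for a fold change beyond 1.5 in either direction, an unadjusted p under 0.05 and an adjusted p under 0.1. It called 0 of 18795 genes (0%) and so 0 of the 39 members tested. Of these members, 28 had a log2 fold change above 0 and 11 below 0, where positive values are higher in TBI. Over all genes tested, 9662 lay above 0 and 9133 below. The median log2 fold change was 0.077 over the members and 0.0091 over all genes, and the median of its absolute value was 0.13 over the members and 0.19 over all genes. In the higher direction 0 members had an unadjusted p under 0.05, against 2.16% of all genes, and in the lower direction it was 1 member, Acsl4, against 2.13% of all genes. The smallest adjusted p of a member was 0.982. The p-values describe the spread between 3 mice per group, and the smallest p of an exact two-sided permutation test is 0.1 at this size.

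Libraries of the groups did not overlap for 2 of the 39 members tested. Txn2 was higher in every TBI library, against 4.77% of all genes in that direction, and Acsl4 was lower in every TBI library, against 5.45% of all genes. The 95% confidence interval of the fold change lay within 1.5-fold in both directions for 16 of the 39 members and within 2-fold for 33. These 16 were Mt3, Gpx4, Prdx1, Prdx2, Prdx3, Prdx5, Sod1, Sod2, Cat, Txn2, Txnrd2, Gclc, Gclm, Keap1, Fth1 and Ftl1. For the other 23, a change of 1.5-fold lay inside the interval.

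**Figure D2:**
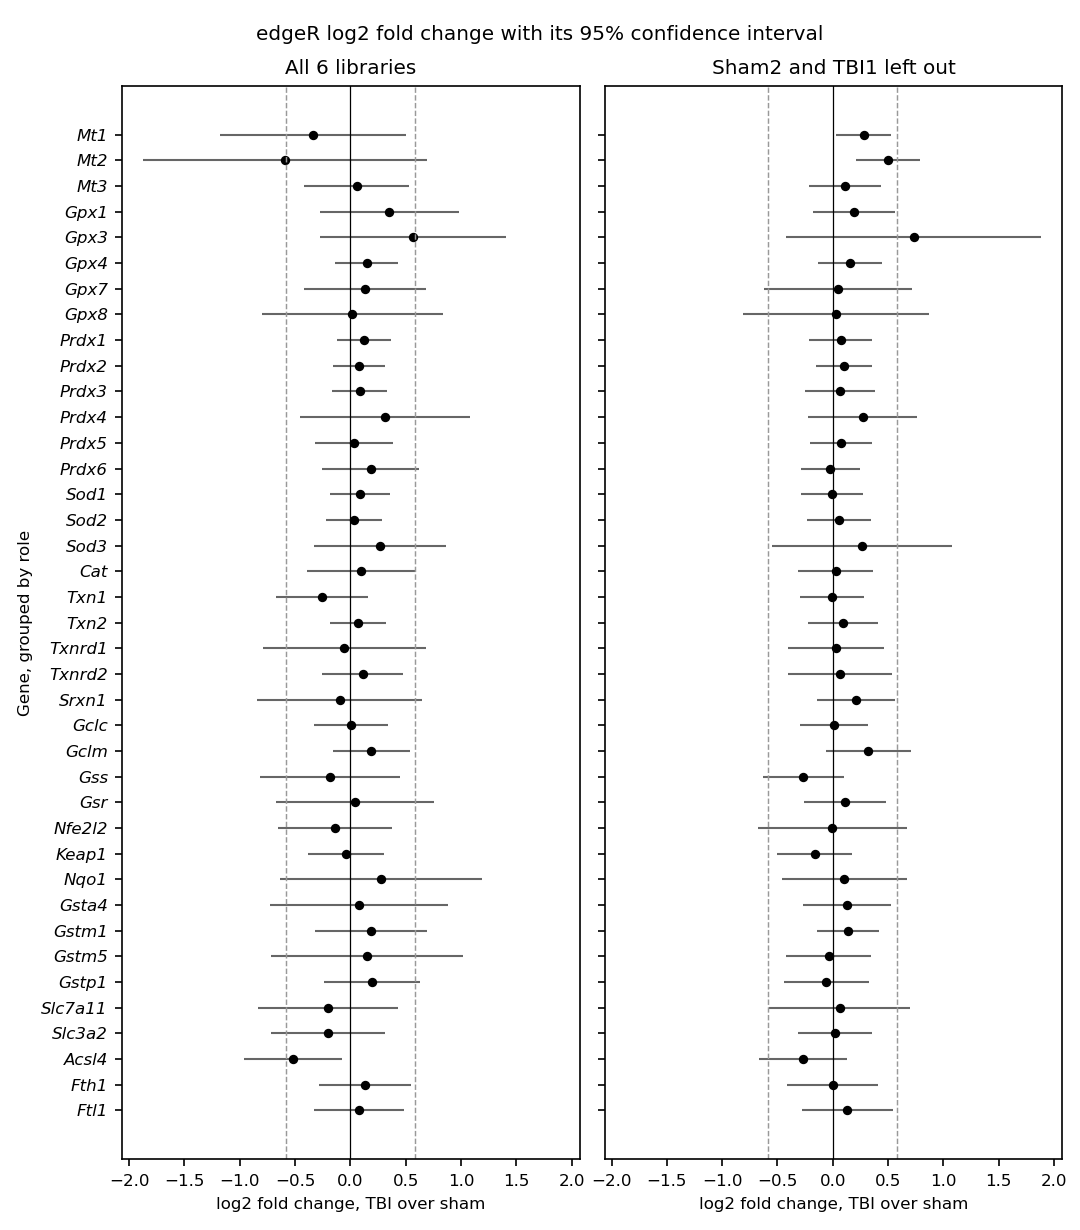
The log2 fold change of TBI over sham (x axis) and its 95% confidence interval from edgeR for the 39 members tested, grouped by role, with dashed lines at a 1.5-fold change. The left panel has all 6 libraries, where Acsl4 alone has an interval that leaves out 0 (-0.97 to -0.079), and the right panel leaves out Sham2 and TBI1, where Mt1 (0.28) and Mt2 (0.50) have such intervals.

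Mt1, a metallothionein of glia and other cells, had 406, 974 and 413 CPM in the sham libraries, given here and below in the order of their numbers, and 424, 496 and 498 CPM in the TBI libraries. Sham2 was far above every other library, and without it all TBI libraries lay above the sham libraries, as they did for 9.95% of all genes in that setting. Mt1 had a log2 fold change of -0.34 ± 0.35 (SE, n = 3 per group), with an edgeR quasi-likelihood adjusted p of 0.982.

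Mt2, its neighbour and the other inducible isoform, had 218, 834 and 240 CPM in sham and 210, 336 and 312 CPM in TBI. Again Sham2 was the highest library, and TBI1 was the lowest. Its log2 fold change was -0.59 ± 0.54 (SE), with a 95% interval from -1.87 to 0.69 and an edgeR adjusted p of 0.982. In Sham2, Mt1 was 2.30 times and Mt2 3.48 times the median of the other 5 libraries.

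Mt3, the isoform best known from brain, did not share this pattern. It had 566, 420 and 502 CPM in sham and 393, 619 and 535 CPM in TBI, so that Sham2 was the lowest of the sham libraries and the groups overlapped. For Mt3 the log2 fold change was 0.057 ± 0.20 (SE), with an edgeR adjusted p of 0.99, and it was -0.051 without Sham2 and 0.22 without TBI1.

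The sign of the Mt1 and Mt2 differences depended on 1 sham library. Without Sham2 the log2 fold changes were 0.21 for Mt1 and 0.32 for Mt2. Without Sham2 and TBI1 they were 0.28 ± 0.099 and 0.50 ± 0.11 (SE, n = 2 per group), with unadjusted p of 0.0351 and 0.00621 and an adjusted p of 0.853 for each in edgeR's quasi-likelihood test. These libraries were the highest sham and the lowest TBI library for both genes and were left out with the values known, so that the direction and the size of these p-values follow in part from the choice. Reactive astrocyte markers were highest in the same library, with 721, 5074 and 724 CPM summed over all 9 in sham and 1788, 1423 and 642 CPM in TBI, and their part in the result was not tested. Timp1, one of the 9, was at 0 in Sham1 and at 76.8 CPM in Sham2.

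Of the 588 exonic bases of Mt2, 432 (73.5%) are shared with Gm45774, an antisense gene on the other strand. Gm45774 had 30.5, 124 and 34.9 CPM in sham and 30.9, 47.4 and 41.7 CPM in TBI, so it too was highest in Sham2. The strandedness of the libraries is not given in the sources used here, and reads that lie within the shared bases cannot be told apart without it.

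**Figure D3:**
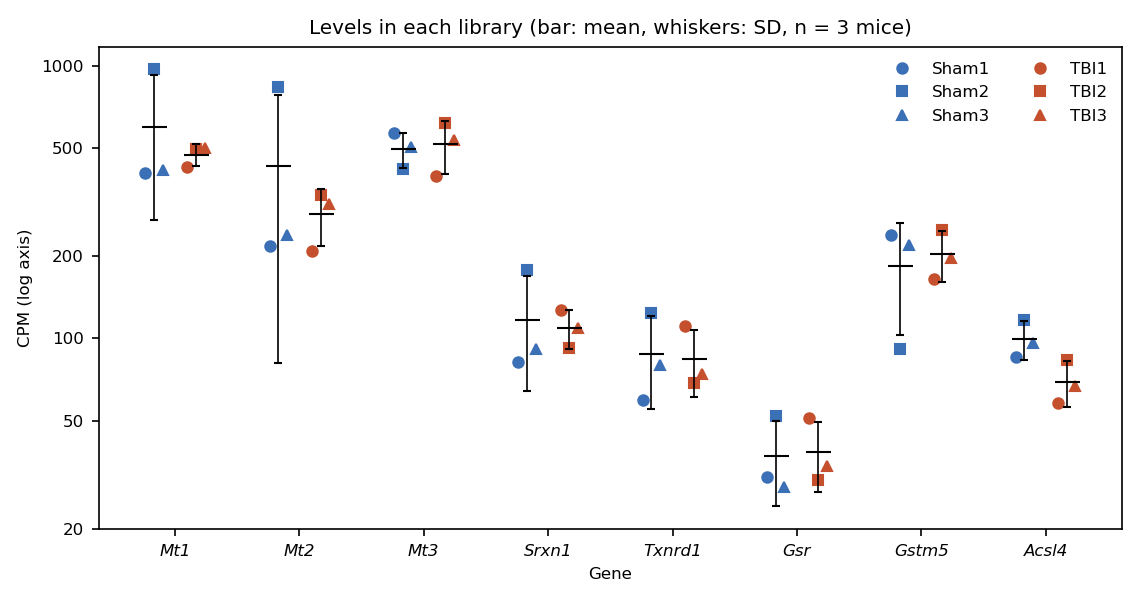
CPM (log axis) of 8 members in each library, with sham in blue and TBI in red, a bar at the mean and whiskers of 1 SD (n = 3 mice per group). Mt1 (974 CPM) and Mt2 (834 CPM) are far higher in Sham2 than elsewhere, Gstm5 (91.6 CPM) is lowest there, and Acsl4 is the one gene shown whose groups do not overlap.

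The library that lay farthest from the median of the other 5 was Sham2 for 18 of the 39 members (46.2%), high for 8 and low for 10. Over all genes tested it was Sham2 for 29.3%. TBI1 was the farthest library for 10 members (25.6%), against 24.0% of all genes. Beside Mt1 and Mt2, the members that stood out upwards in Sham2 were Srxn1 (1.93 times the median of the others), Txnrd1 (1.68), Gsr (1.67), Slc3a2 (1.53), Txn1 (1.47) and Gclc (1.19). These code for sulfiredoxin, thioredoxin reductase, glutathione reductase, a subunit of the cystine carrier, thioredoxin and the catalytic subunit of glutamate-cysteine ligase. The 10 that stood out downwards were led by Gstm5 (0.417), Nqo1 (0.42) and Prdx4 (0.534). The others were Gstm1, Prdx6, Gss, Cat, Fth1, Keap1 and Gpx4, at 0.629 to 0.843 of the median. The summed level of 10 astrocyte markers was also lowest in Sham2, at 4054 CPM against 5766 to 6551 CPM, though only 5 of the 10 were lowest there and Aqp4 (401 CPM) and Sox9 (75.4 CPM) were highest there. The sums for oligodendrocytes and choroid plexus were lowest in Sham2 as well, and the part of these lists in the values was not tested.

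**Figure D4:**
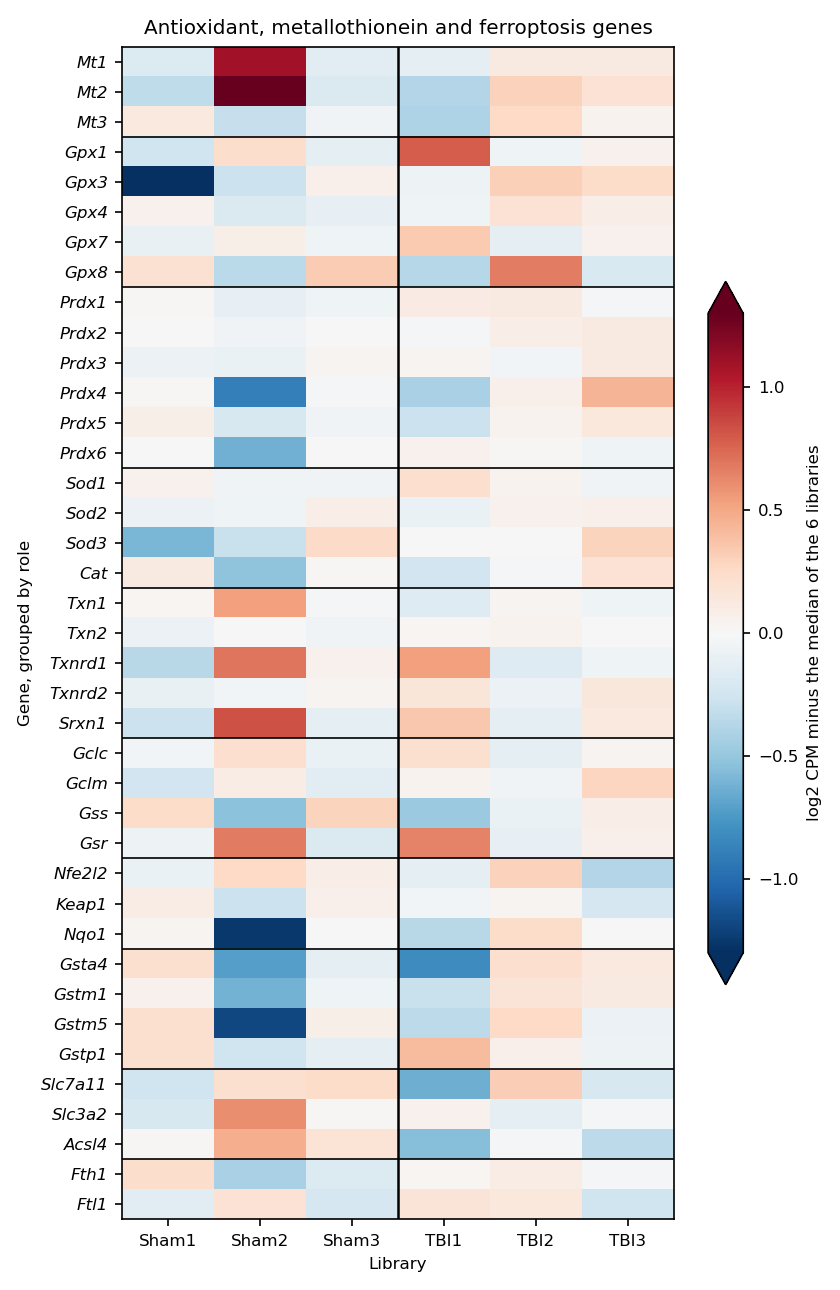
Colour shows the log2 CPM of each of the 39 members (rows, grouped by role) minus its median over the 6 libraries (columns), with red above and blue below the median. Sham2 holds the deepest red cells (Mt1 and Mt2) and deep blue cells (Nqo1 and Gstm5), Gpx3 is deep blue in Sham1, and the TBI columns share no uniform colour.

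Glutathione peroxidases reduce peroxides with glutathione. Gpx4, which acts on lipid peroxides in membranes and is the main brake on ferroptosis, had the highest level of this family per length of exon. Its libraries were at 394, 332 and 352 CPM in sham and 362, 429 and 401 CPM in TBI, and the groups overlapped. Gpx4 had a log2 fold change of 0.15 ± 0.12 (SE), with an edgeR adjusted p of 0.982 and a 95% interval from -0.14 to 0.43. The pseudogene Gpx4-ps2 was given 2205 counts over all libraries, with at most 422 in a library.

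Gpx1, the widespread cytosolic form, had 24.1, 33.7 and 26.4 CPM in sham and 49.7, 27.8 and 29.9 CPM in TBI. TBI1 was the highest library, and the log2 fold change was 0.35 with all libraries, 0.037 without TBI1 and 0.50 without Sham2. Gpx3, the secreted form, was lowest in Sham1, at 4.25 CPM against 8.55 to 12.9 CPM in the other libraries, and had a log2 fold change of 0.56 ± 0.35 (SE), which was 0.27 without Sham1. Gpx7 and Gpx8, peroxidases of the endoplasmic reticulum, had log2 fold changes of 0.13 and 0.017, with levels of at most 11.98 CPM in every library. Without TBI1 these were -0.0037 and 0.21, and without Sham2 they were 0.18 and -0.16.

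Gpx6, a member of the family known from olfactory epithelium, was counted in TBI libraries only. It was given 0 counts in each sham library and 66, 5 and 8 in the TBI libraries. Most of them came from TBI1. Pooled over the TBI libraries the level was 29.0 times that of sham when the sham group was set at 3 counts over the group. For TBI2 and TBI3 alone it was 7.67 times. These ratios are not lower bounds, because the TBI counts carry error of their own. The floor covers counting error only, and estimated counts of this size are uncertain because low values pile up at multiples of 4.

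Gpx6 was below the count filter and so was not tested in the edgeR comparison. With a looser filter it enters only through the TBI libraries, so a p found that way is no support for a difference. DESeq2 with its defaults called Gpx6, with an adjusted p of 0.0626, as the only member among 46 called of 20988 genes with an adjusted p (0.219%). The DESeq2 adjusted p ran from 0.0199 without TBI2 to 0.296 without Sham1, and without TBI1 the unadjusted p was 0.0738 and no adjusted p was given. The olfactory marker Omp was at 0 CPM in all 3 TBI libraries, and the sum of 7 olfactory markers was 37.3 to 44.1 CPM in sham and 53.6, 40.04 and 100.4 CPM in TBI. Most of this sum was Gng13, which had 33.1, 36.4 and 31.2 CPM in sham and 30.4, 33.8 and 98.4 CPM in TBI, and Rtp2, like Omp, was at 0 in the TBI libraries. Ano2, another of the 7, was highest in TBI1, at 22.5 CPM against 1.01 to 4.79 CPM in the other libraries. TBI1 was also the library with the striatal markers, whose part in the Gpx6 counts was not tested.

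Peroxiredoxins are abundant thiol peroxidases, most of which are returned to their reduced form by thioredoxin. All 6 had a log2 fold change above 0, from 0.034 for Prdx5 to 0.31 for Prdx4, and none reached an unadjusted p under 0.05. Without Sham2 the value of Prdx5 was -0.039 and the other 5 stayed above 0. Prdx5, found in mitochondria, peroxisomes and cytosol, had the highest level per length of exon of the family.

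The Prdx5 libraries were at 295, 241 and 271 CPM in sham and 230, 289 and 308 CPM in TBI. The groups overlapped, with TBI1 and Sham2 lowest, and the log2 fold change was 0.034 ± 0.15 (SE, edgeR adjusted p = 0.992). Trmt112, on the other strand, shares 19.1% of the exonic bases of Prdx5.

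Prdx1, Prdx2 and Prdx3, the first 2 cytosolic and the last mitochondrial, were the steadiest members of the family. Their highest library was at most 1.11 times their lowest within a group, and their log2 fold changes were 0.12, 0.078 and 0.085. Prdx6, which also repairs phospholipids, was at 184 to 198 CPM in 5 libraries and at 124 CPM in Sham2. Its log2 fold change was 0.18 with all libraries and 0.0040 without Sham2. Prdx4, of the secretory pathway, was likewise lowest in Sham2, at 9.42 CPM against 13.0 to 23.7 CPM, and its log2 fold change of 0.31 was 0.073 without Sham2 and 0.51 without TBI1.

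Superoxide dismutases turn superoxide into hydrogen peroxide, and catalase breaks hydrogen peroxide down. Sod1, the cytosolic copper-zinc enzyme, had 204, 190 and 189 CPM in sham and 228, 202 and 190 CPM in TBI. TBI1 was the highest library, and the other TBI libraries lay within the sham range. This gave a log2 fold change of 0.087 ± 0.11 (SE, edgeR adjusted p = 0.982), which was 0.011 without TBI1.

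Sod2, the mitochondrial enzyme, was at 169 to 190 CPM in all libraries, with a log2 fold change of 0.032 and a 95% interval from -0.22 to 0.29. Sod3, the extracellular form, had the lowest level per length of exon of the members tested in sham. It was at 8.84, 10.9 and 15.8 CPM in sham and 13.2, 13.4 and 16.2 CPM in TBI, and the groups overlapped. Sod3 had a log2 fold change of 0.27 ± 0.25 (SE), which was 0.10 without Sham1 and 0.53 without Sham3. Cat, catalase, was lowest in Sham2, at 36.7 CPM against 44.5 to 60.1 CPM, with a log2 fold change of 0.093, which was -0.078 without Sham2.

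Thioredoxin passes electrons from NADPH, by way of its reductase, to peroxiredoxins and other proteins. Txn1, the cytosolic thioredoxin, had 85.0, 120 and 81.9 CPM in sham and 74.3, 85.7 and 80.2 CPM in TBI. Sham2 was the highest library and the other 5 lay close together. Txn1 had a log2 fold change of -0.26 ± 0.17 (SE, edgeR adjusted p = 0.982), which was -0.061 without Sham2.

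Txn2, the mitochondrial thioredoxin, had 37.2, 39.1 and 38.1 CPM in sham and 40.004, 40.6 and 39.6 CPM in TBI. Every TBI library was above every sham library, by a small margin, the ratio of the nearest libraries being 1.01. With library totals in place of TMM factors Txn2 overlapped. It had a log2 fold change of 0.072 ± 0.11 (SE), with an edgeR unadjusted p of 0.521 and an adjusted p of 0.983.

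Txnrd1 had 59.7, 124 and 79.6 CPM in sham and 111, 68.5 and 73.8 CPM in TBI. The high libraries were Sham2 and TBI1, and the log2 fold change was -0.054 with all libraries, 0.28 without Sham2 and -0.30 without TBI1. Srxn1, which restores overoxidised peroxiredoxins, had 82.2, 178 and 91.3 CPM in sham and 127, 91.9 and 109 CPM in TBI. Without Sham2, its highest library, its log2 fold change went from -0.097 to 0.33. Its groups then did not overlap, as for 9.95% of all genes in the same direction. Txnrd2, the mitochondrial reductase, was at 13.6 to 16.2 CPM in all libraries.

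Glutathione is made by glutamate-cysteine ligase (Gclc and Gclm) and glutathione synthetase (Gss), and is recycled by glutathione reductase (Gsr). Gclc had 69.9, 83.0 and 67.4 CPM in sham and 82.6, 65.3 and 73.0 CPM in TBI. Sham2 and TBI1 were again the high libraries. Gclc had a log2 fold change of 0.0044 ± 0.14 (SE, edgeR adjusted p = 0.998), with a 95% interval from -0.33 to 0.34. It was 0.10 without Sham2 and -0.087 without TBI1.

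Gsr was also high in this pair, at 51.9 CPM in Sham2 and 50.9 CPM in TBI1 against 28.5 to 34.0 CPM in the other 4, and its log2 fold change was 0.046 with all libraries, 0.36 without Sham2 and -0.21 without TBI1. Gss was low in the same pair, at 17.4 CPM in Sham2 and 18.0 CPM in TBI1 against 23.7 to 30.8 CPM, with a log2 fold change of -0.19, which was -0.41 without Sham2 and -0.045 without TBI1. Gclm, the modifier subunit, had a log2 fold change of 0.19 ± 0.15 (SE), which was 0.32 without Sham2 and TBI1 and 0.087 without TBI3.

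Nfe2l2, the gene of Nrf2, was at 18.4 to 23.5 CPM in sham and 15.1 to 24.1 CPM in TBI, with a log2 fold change of -0.14 ± 0.21 (SE), which was -0.047 without Sham2 and -0.35 without TBI2. Keap1, its inhibitor, had 83.3, 64.2 and 81.8 CPM in sham and 75.8, 80.2 and 67.2 CPM in TBI. The groups overlapped, and the log2 fold change was -0.039 ± 0.14 (SE, edgeR adjusted p = 0.991), which was -0.15 without Sham2. Nqo1, a quinone reductase and a standard Nrf2 target, had 7.21, 2.97 and 7.06 CPM in sham and 5.49, 8.31 and 7.05 CPM in TBI. Its log2 fold change was 0.27 with all libraries and -0.039 without Sham2. It was lowest in Sham2, where Srxn1 and Txnrd1, also known Nrf2 targets, were highest.

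Glutathione transferases join glutathione to reactive compounds. Gstm5, the member of this family with the highest level per length of exon, had 240, 91.6 and 220 CPM in sham and 165, 250 and 198 CPM in TBI. Sham2 was the lowest library and TBI1 the next lowest. The log2 fold change was 0.15 ± 0.36 (SE, edgeR adjusted p = 0.985), and it was -0.17 without Sham2 and -0.038 without Sham2 and TBI1.

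Gstm1 and Gsta4, which acts on the lipid peroxidation product 4-hydroxynonenal, were also low in Sham2 and TBI1. Gstm1 was at 107 and 134 CPM there against 157 to 184 CPM in the other libraries, and Gsta4 at 33.2 and 31.0 CPM against 49.9 to 63.5 CPM. Gstp1 went the other way in TBI1, at 164 CPM against 103 to 142 CPM. The log2 fold changes of these 3 genes were 0.19, 0.078 and 0.19. Without Sham2 they were 0.0091, -0.14 and 0.093, and without TBI1 they were 0.32, 0.34 and 0.041. Close paralogs of the transferases could share reads, and how the authors' counting treated such reads is not given in the sources used here.

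Cystine enters cells through a carrier made of Slc7a11 and Slc3a2. Slc3a2 had 79.4, 139 and 92.2 CPM in sham and 95.02, 83.7 and 90.7 CPM in TBI. Sham2 was the highest library, and the other 5 lay within a narrow range. Its log2 fold change was -0.20 ± 0.22 (SE, edgeR adjusted p = 0.982) and 0.065 without Sham2. Slc7a11, the transport subunit, was lowest in TBI1, at 37.7 CPM against 48.9 to 72.9 CPM, and its log2 fold change of -0.21 was -0.0052 without that library and -0.49 without TBI2.

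Acsl4, the acyl-CoA synthetase that favours ferroptosis, had 85.7, 117 and 95.9 CPM in sham and 57.8, 83.7 and 66.8 CPM in TBI. Every TBI library was below every sham library, with TBI1 the lowest and Sham2 the highest. The log2 fold change was -0.52 ± 0.19 (SE), with an edgeR unadjusted p of 0.0274 and an adjusted p of 0.982. The unadjusted p was 0.0821 without Sham2, 0.0737 without TBI1 and 0.0663 without TBI3, and the direction was kept in all 17 alternatives, from -0.68 to -0.27. Without Sham2 and TBI1 together the groups still did not overlap, the log2 fold change was -0.27 ± 0.16 (SE) and the unadjusted p was 0.139. The gene lies on chromosome X from 142317993 to 142390535 on the minus strand (GRCm38). The summed level of hippocampal neuron markers was also lower in every TBI library. It was at 3176, 3791 and 3618 CPM in TBI1 to TBI3 against 4669, 4344 and 4126 CPM in sham. Of the 11 markers, 9 had a log2 fold change below 0. Without Slc17a7 the sums overlapped, and most of what remained was Snap25. The part of these markers in the Acsl4 values was not tested.

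Ferritin stores iron out of reach of peroxide. Fth1, the heavy chain, had 3325, 2129 and 2515 CPM in sham and 2896, 3041 and 2793 CPM in TBI. Sham2 was the lowest library and Sham1 the highest, and the TBI libraries lay between them. Fth1 had a log2 fold change of 0.13 ± 0.17 (SE, edgeR adjusted p = 0.982) and of -0.0057 without Sham2. Without Sham1 it was 0.33, with all TBI libraries above the sham libraries, an unadjusted p of 0.0468 and an adjusted p of 0.9999 in edgeR's quasi-likelihood test. Since Sham1 was the highest library, the separation and the size of this p follow in part from leaving it out. In that setting 8.84% of all genes were higher in TBI without overlap. Ftl1, the light chain, was at 278 to 380 CPM, with a log2 fold change of 0.076, which was 0.21 without Sham2. Of its exonic bases 26.5% are shared with Gm10252 on the other strand, and 489 counts over all libraries were given to the pseudogene Ftl1-ps1.

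Levels of different genes were compared as CPM per kilobase of exon. In sham, Fth1 was at 766 ± 176 (SD, n = 3), Mt2 at 732 ± 595, Mt1 at 480 ± 262 and Mt3 at 465 ± 68.6. The libraries of neighbours in this order overlapped, while every Fth1 library was above every Mt3 library. The place of Mt2 and Mt1 above Mt3 rested on Sham2, since in Sham1 and Sham3 Mt2 was at 371 and 408, Mt1 at 326 and 331, and Mt3 at 531 and 471. Ftl1 followed at 242 ± 36.7, Gpx4 at 208 ± 18.3 and Gstm5 at 144 ± 63.1. At the lower end, Nqo1 was at 3.70 ± 1.55, Gpx7 at 3.43 ± 0.211, Txnrd2 at 3.22 ± 0.144 and Sod3 at 3.17 ± 0.962, and the libraries of neighbours in this order overlapped. In TBI, Fth1 was at 839 ± 36.0 and the metallothioneins at 379 to 487 CPM per kilobase. The highest sham library was a median of 1.41 times the lowest over the 39 members, and the highest TBI library 1.35 times the lowest.

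**Figure D5:**
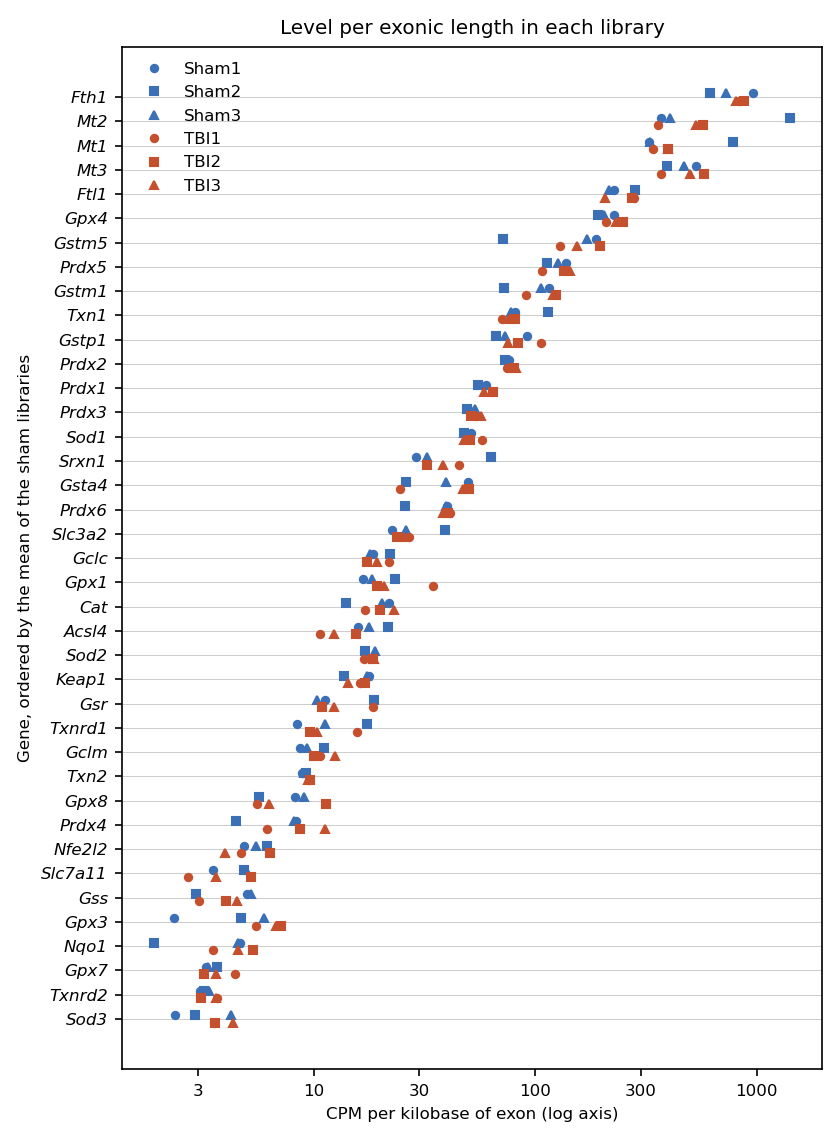
CPM per kilobase of exon (log axis) of the 39 members tested, with a point for each library and genes ordered by their mean in sham, from Fth1 (766) to Sod3 (3.17). The spread between libraries is widest for Mt2 and narrow for Prdx1, Prdx2, Prdx3 and Txn2.

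Of 159 further genes of these pathways found in the files, 143 were tested and 77 had a log2 fold change above 0 and 66 below. No such gene passed the DEG thresholds, and 3 of the 143 (2.1%) had an unadjusted p under 0.05 in edgeR, against 4.29% of all genes. Trf, the iron carrier transferrin, had 238, 228 and 235 CPM in sham and 463, 270 and 307 CPM in TBI, without overlap, and a log2 fold change of 0.57 ± 0.21 (SE, unadjusted p = 0.0301, adjusted p = 0.982). Its highest library was TBI1, and without it the log2 fold change was 0.30. Txnl4a, a spliceosome protein with a thioredoxin fold, had a log2 fold change of 0.54 (unadjusted p = 0.0458), and Mboat1, a phospholipid acyltransferase, had -0.65 (unadjusted p = 0.0466).

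By list, values above and below 0 were met by 17 and 13 of 30 other glutathione enzymes, 18 and 10 of 28 other thioredoxin and selenoprotein genes, and 14 and 19 of 33 other Nrf2 pathway genes. They were met by 16 and 19 of 35 other ferroptosis and iron genes, 3 and 3 of 6 other metal-responsive genes and 9 and 2 of 11 sources of reactive oxygen. Microglia and macrophage markers had values above 0 for 12 and below 0 for 0 of 12, with a median of 0.34. Their part in the last list was not tested. Hmox1, heme oxygenase 1 and an Nrf2 target, had 5.04, 84.8 and 5.57 CPM in sham and 23.2, 15.04 and 5.70 CPM in TBI. It was highest in Sham2, and its log2 fold change went from -1.12 with all libraries to 1.47 without Sham2. Mtf1, the gene of the metal-responsive factor of Mt1 and Mt2, was at 45.4 to 57.0 CPM, with a log2 fold change of -0.0054. Tfrc, the transferrin receptor, and Slc40a1, the iron exporter, had log2 fold changes of -0.17 and -0.28, which were -0.068 for Tfrc without Sham2 and -0.016 for Slc40a1 without Sham1, and Txnip, an inhibitor of thioredoxin, had 0.48 ± 0.41 (SE), which was 0.22 without Sham2 and 0.83 without Sham3.

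Without Sham2 and TBI1, a choice made after their values were seen, 29 of the 39 members had a log2 fold change above 0 and 10 below, with a median of 0.066. None passed the DEG thresholds, while 3 of 18863 genes did. Groups of 2 libraries did not overlap for 14 of these 39, 11 higher and 3 lower in TBI, against 18.5% of all genes in the higher and 18.6% in the lower direction. The 11 were Mt1, Mt2, Gpx1, Gpx3, Gpx4, Prdx2, Prdx4, Txn2, Srxn1, Gclm and Gstm1, and the 3 were Gss, Keap1 and Acsl4. The interval lay within 1.5-fold for 27 members, against 16 with all libraries.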

How the data were processed

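Hippocampal RNA of 3 sham and 3 TBI mice was sequenced by the authors, who, per the labels and the paper's methods, used FastQC, HISAT2 on GRCm38 and StringTie. Each deposited file holds estimated counts, 1 whole number per gene without normalization, with sums of 31630936 to 41771872. The step from coverage to counts is not given in the sources used here, and low values pile up at multiples of 4 (5109 values of 4, 2325 of 3). Of 52550 identifiers 52403 matched a symbol of GENCODE vM21. Groups were taken from the sample labels.

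With R 4.3.3, counts were filtered with filterByExpr, scaled by TMM and tested with the quasi-likelihood test of edgeR 4.0.16 (limma 3.58.1) with Benjamini-Hochberg adjustment over 18795 genes. DESeq2 1.42.0, the authors' tool, was an alternative. The standard error was the size of the log2 fold change divided by the square root of F, and intervals used the t distribution. Promoter windows were RefSeq's. Scripts were tested on simulated data, where good recovery of large changes was required only at a spread far below that of these data. That check does not tell what could be found at the spread of these data. The members and lists were chosen with earlier results of these data known. All 40 members are named. Full values are given for members with an unadjusted p under 0.05 or without overlap, the metallothioneins, Gpx6 and the member with the highest level per exonic length in each role group. Other pathway genes were named by an unadjusted p under 0.05, with Hmox1, Txnip, Tfrc, Slc40a1 and Mtf1. Alternatives changed the tool, scaling, filter, dispersion, count scale, thresholds, replicate block and libraries.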

Additional observations from a re-analysis of the deposited data

How the results depend on the processing

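The median log2 fold change of the members stayed between 0.065 and 0.095 in all 17 alternatives. The log2 fold change of 16 of the 39 members kept its sign in every one, and no member that edgeR tested became a DEG. DESeq2 gave 46 DEGs with its defaults and 43 on the genes of the edgeR filter, against 0 with edgeR, and with its defaults called 1 member, Gpx6. Members with an unadjusted p under 0.05 numbered 1 in the edgeR comparison (2.56%, against 4.29% of all genes) and 2 with DESeq2 defaults, with a filter of at least 1 count and without Sham2 and TBI1, and in the first and second of these settings one of them was Gpx6, which has 0 counts in every sham library. The shares of all genes in these 3 settings were 4.11%, 3.48% and 5.02%. Other pathway genes with such a p numbered 3, 5 with DESeq2 defaults (3.33%, against 4.11% of all genes) and 8 without Sham2 and TBI1 (5.59%, against 5.02%). Of the 39 members tested, those without overlap numbered 2, 1 with library totals and 14 without Sham2 and TBI1, where 3 genes were DEGs. With each library left out in turn, DEGs ran from 0 to 1 (1 without TBI1), members with such a p from 0 to 2 (0% to 5.13%, against 2.49% to 5.82% of all genes), members without overlap from 3 to 8 (7.69% to 20.5%, against 17.5% to 22.7% of all genes) and pathway genes from 1 to 5 (0.699% to 3.47%). The causes were not tested.

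Signs turned without Sham2 and TBI1 for Mt1 (0.28), Mt2 (0.50), Prdx6 (-0.021), Sod1 (-0.0062), Txnrd1 (0.029), Srxn1 (0.21), Gstm5 (-0.038), Gstp1 (-0.057), Slc7a11 (0.065), Slc3a2 (0.022), Fth1 (-0.0022) and Hmox1 (0.97). They turned for Gclc with DESeq2 defaults (-0.0015) and for Mtf1 with at least 10 counts in every library (0.0018) and counts divided by 4 (0.0023). With each library left out in turn, log2 fold changes crossed 0 and ran from -0.55 to 0.21 for Mt1, -0.90 to 0.32 for Mt2, -0.10 to 0.22 for Mt3, -0.0037 to 0.23 for Gpx7, -0.38 to 0.21 for Gpx8, -0.060 to 0.15 for Prdx5 and -0.078 to 0.22 for Cat. They ran from -0.30 to 0.28 for Txnrd1, -0.29 to 0.33 for Srxn1, -0.087 to 0.10 for Gclc, -0.21 to 0.36 for Gsr, -0.35 to 0.00061 for Nfe2l2, -0.15 to 0.033 for Keap1, -0.039 to 0.47 for Nqo1 and -0.14 to 0.34 for Gsta4. They ran from -0.17 to 0.40 for Gstm5, -0.36 to 0.065 for Slc3a2, -0.0057 to 0.33 for Fth1, -0.0059 to 0.21 for Ftl1, -1.62 to 1.47 for Hmox1 and -0.10 to 0.047 for Mtf1. Without crossing 0 they ran from 0.082 to 0.22 for Gpx4, 0.043 to 0.12 for Prdx2, 0.041 to 0.12 for Prdx3, 0.011 to 0.14 for Sod1, 0.067 to 0.18 for Txnrd2, 0.087 to 0.29 for Gclm, 0.037 to 0.50 for Gpx1, 0.27 to 0.86 for Gpx3, 0.073 to 0.51 for Prdx4, 0.0040 to 0.29 for Prdx6, 0.0018 to 0.079 for Sod2, 0.10 to 0.53 for Sod3, -0.37 to -0.061 for Txn1, -0.41 to -0.045 for Gss, 0.0091 to 0.32 for Gstm1, 0.041 to 0.34 for Gstp1, -0.49 to -0.0052 for Slc7a11 and 0.22 to 0.83 for Txnip.

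Deviations of same-numbered sham and TBI libraries from their group means had correlations of -0.0996, -0.065 and 0.153 across genes, so the replicate numbers were not taken to pair the mice. With the replicate number as a block, 0 members were DEGs, 1 had an unadjusted p under 0.05, 2 pathway genes did, and Gpx8 turned to -0.039. Of the 3 same-numbered libraries, not every one correlated best with its own number. With 3 mice per group, a change of 1.5-fold lay inside the 95% confidence interval of 23 of the 39 members.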
